A study of Homo sapiens with 12 samples.

Results

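Ribosomal protein pseudogenes were followed in the transcriptome of HK2 cells, an immortalised epithelial line from the human proximal tubule. The set holds 116 of the 1507 ribosomal protein pseudogenes among 62703 listed genes. Its members carry a pseudogene biotype in the matched annotation and a symbol made of RPL or RPS, digits and a closing P with a number, and they were chosen by a level of at least 1 TPM (transcripts scaled to a common total per library) in 3 or more of the 12 libraries. Of them, 86 are copies of large subunit genes and 30 of small subunit genes, and together they derive from 43 parent genes. By biotype 96 are processed pseudogenes, 17 transcribed processed, 2 transcribed unprocessed and 1 unprocessed. Since the level chose the members, their presence in the libraries is a description. Beyond them, 94 listed pseudogenes reached 1 TPM in 1 or 2 libraries and 828 were listed at 0 in all 12. The members nearest to the level rule were RPS10P3 and RPL21P14, whose third-highest library held 1.00 and 1.02 TPM, and the nearest left out were RPS24P8 and RPS20P33, at 0.99 and 0.98 TPM.

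The study asked how FGF9, a secreted fibroblast growth factor, bears on tubular cells in high glucose. The NG group was kept in 5.5 mM glucose and carried a control vector, the si-FGF9 group was kept in 5.5 mM glucose with an siRNA against FGF9, the HG group received 50 mM glucose, and the HG + OE-FGF9 group received 50 mM glucose and an FGF9-overexpressing lentivirus vector. Each group had 3 libraries. No non-targeting siRNA is described, the promoter of the vector is not given in the sources used here, and the paper describes the NG medium in a second place as one with mannitol. A control vector is described for NG only, so that by the description HG differs from NG in glucose and vector together. HG + OE-FGF9 likewise differs from HG in carrying a vector. The paper's results name the overexpression vector as an adenovirus. Nothing says whether the 3 libraries of a group came from separate cultures, so that p-values measure the spread between these libraries, which may be technical. FGF9 itself was listed at 0 TPM in all NG, HG and si-FGF9 libraries and at 3.34, 4.03 and 3.82 TPM in HG + OE-FGF9, which checks the overexpression labels and leaves the siRNA unchecked.

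Ribosomal proteins build the large (RPL) and small (RPS) subunits of the ribosome, and their messenger RNAs are short and abundant in every growing cell. Processed pseudogenes of these genes arose when such messengers were copied into DNA and inserted elsewhere in the genome, so they lack introns and mostly have no promoter of their own. Many remain close to the parent in sequence, and a short read that is identical in both cannot be placed by its letters. TPM divides reads by transcript length and sums to 1000000 in each library, and the depth behind it is unknown.

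Several facts of the libraries move with the groups. The sum of small nuclear and nucleolar RNAs was 207 to 833 TPM in NG, HG and si-FGF9 and 5275 to 16630 TPM in HG + OE-FGF9, lowest there in replicate 3. Mitochondrial transcripts took 4.94% to 8.60% of TPM in si-FGF9 and 11.3% to 15.6% elsewhere. The epithelial keratins KRT8 and KRT18 were present in every library, as were VIM, at 1109 to 2956 TPM, and the renal transcription factor PAX8. PAX8 averaged 78.5 TPM for NG, 64.1 for HG, 39.5 for si-FGF9 and 26.3 for HG + OE-FGF9. Its relative PAX2 held only 0.46 to 2.01 TPM over the 12 libraries. Of 7 genes of the mature proximal tubule, the enzyme GGT1 held 71.7 to 195 TPM, SLC5A2 and AQP1 at most 3.01, and LRP2, CUBN, SLC34A1 and ANPEP were at or near 0, as were PTPRC, PECAM1 and CDH5, markers of leukocytes and endothelium. Among the markers of other cell types, COL1A1 held 1.54 to 7.81 TPM. Over all 14639 genes tested, HG versus NG had a median log2 fold change of -0.39, si-FGF9 versus NG one of -0.79 and HG + OE-FGF9 versus HG one of -0.13, and the changes of the pseudogenes are read against these shifts.

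The sequences below set the members on which the results turn beside their parents. Each is a stretch of 90 bases without a gap within the parent's coding sequence, read 5′ to 3′ from the GENCODE release 29 transcripts. It was chosen as the first such stretch with the most differences, and capitals mark the bases at which member and parent differ. The first line stands for the copies that cannot be told from the parent and serves both genes.

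RPL21P16 and RPL21: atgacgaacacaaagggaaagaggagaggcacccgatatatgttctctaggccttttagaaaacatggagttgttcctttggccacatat
RPL3P4: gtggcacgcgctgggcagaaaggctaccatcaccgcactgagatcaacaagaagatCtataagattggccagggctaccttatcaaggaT
RPL3: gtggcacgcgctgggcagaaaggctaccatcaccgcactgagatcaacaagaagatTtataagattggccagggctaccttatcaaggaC
RPL23AP42: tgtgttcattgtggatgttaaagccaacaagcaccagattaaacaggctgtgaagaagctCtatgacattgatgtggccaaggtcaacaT
RPL23A: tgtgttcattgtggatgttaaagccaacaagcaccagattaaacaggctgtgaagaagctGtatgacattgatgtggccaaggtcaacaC
RPL13AP5: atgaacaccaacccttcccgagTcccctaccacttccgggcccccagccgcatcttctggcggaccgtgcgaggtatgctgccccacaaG
RPL13A: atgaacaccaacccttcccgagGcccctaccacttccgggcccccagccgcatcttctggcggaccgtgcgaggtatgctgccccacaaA
RPL24P2: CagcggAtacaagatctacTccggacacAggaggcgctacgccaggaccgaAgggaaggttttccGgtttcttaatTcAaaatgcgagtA
RPL24: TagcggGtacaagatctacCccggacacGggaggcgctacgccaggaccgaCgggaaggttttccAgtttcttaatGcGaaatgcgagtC
RPL22P19: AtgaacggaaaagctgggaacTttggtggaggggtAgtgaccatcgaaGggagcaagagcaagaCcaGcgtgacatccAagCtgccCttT
RPL22: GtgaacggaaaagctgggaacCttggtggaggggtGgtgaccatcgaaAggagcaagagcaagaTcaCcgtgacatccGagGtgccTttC
RPL39P34: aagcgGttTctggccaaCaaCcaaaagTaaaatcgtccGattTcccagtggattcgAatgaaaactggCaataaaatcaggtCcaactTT
RPL39: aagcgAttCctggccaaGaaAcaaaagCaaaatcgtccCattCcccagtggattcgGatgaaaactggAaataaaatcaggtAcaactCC
RPL36P4: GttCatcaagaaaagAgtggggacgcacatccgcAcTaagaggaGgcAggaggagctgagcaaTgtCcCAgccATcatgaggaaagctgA
RPL36: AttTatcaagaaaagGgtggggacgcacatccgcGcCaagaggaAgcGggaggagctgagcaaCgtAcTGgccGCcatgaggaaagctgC

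RPL3P4 and RPL23AP42 differ from their parents at 2 bases of these 90, and RPL13AP5 also at 2. RPL24P2 differs at 9 bases and RPL22P19 at 10, and most of their words of 50 bases are unique. Over all aligned bases the differences are sparser, at 24 of 474 for RPL24P2 and 32 of 417 for RPL22P19. RPL39P34 differs at 12 bases and RPL36P4 at 14. Across the 116 members, identity to the parent ran from 74.5% to 100.0% with a median of 94.0%, and transcript length from 156 to 2987 bases with a median of 474.

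To describe how far a read could identify a member, each member's transcript was split into all its runs of 50 consecutive bases (words), and each word was looked up on both strands in the 206694 annotated transcripts. A word was counted as unique when no other gene held it. In 68 members at least 50% of the words were unique, in 36 fewer than 50% were, and in 12 none was. Of these 12, 4 (RPL36AP37, RPS28P7, RPL39P3 and RPL21P16) had every word in the parent, and 7 had none in the parent and all in other genes. The level differed along this scale. Mean TPM over the 12 libraries had a median of 18.1 in the 12 members without a unique word, 3.00 in the 36 and 1.70 in the 68, and a mean of 10 TPM or more was reached by 8 of 12, 7 of 36 and 3 of 68. The highest mean TPM among the 68 was 33.1, and among the 12 it was 6004.

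**Figure D1:**
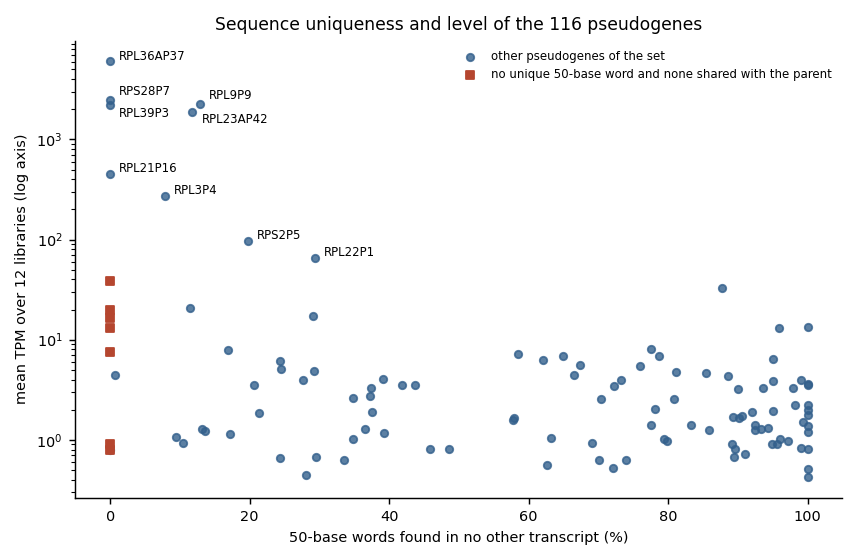
Mean TPM over the 12 libraries (log axis) of each of the 116 pseudogenes against the percentage of its 50-base words found in no other transcript. All members above 50 TPM lie under 30% of unique words, and the squares mark 7 members whose words all belong to genes other than the parent.

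The members' TPM was held by few of them. The 6 highest, RPL36AP37, RPS28P7, RPL9P9, RPL39P3, RPL23AP42 and RPL21P16, held 94.7% of the set's mean TPM, and 98 of the 116 members had a mean under 10 TPM. The sum over all 1507 listed pseudogenes, which no level rule filtered, averaged 14220 ± 884 TPM for NG, 15403 ± 1782 for HG, 19699 ± 2826 for si-FGF9 and 15430 ± 492 for HG + OE-FGF9 (mean ± SD, n = 3). As log2 ratios, HG stood 0.12 and si-FGF9 0.47 above the shared NG libraries, and HG + OE-FGF9 stood 0.0026 above HG. The si-FGF9 libraries, at 16436 to 21337 TPM, all lay above the NG libraries, at 13575 to 15228, while HG overlapped with NG and with HG + OE-FGF9. Without the 6 highest members the sum in si-FGF9 was 3.45-fold that in NG, and RPL3P4 and RPL22P1 held most of what was left. Without these also, the sums were 589 TPM in si-FGF9 and 550 TPM in NG, 1.07-fold, and the groups overlapped. With the 6 left out, HG stood at 1.04-fold NG and HG + OE-FGF9 at 1.23-fold HG. The ribosomal protein genes themselves summed to 212218 ± 7963 TPM in NG and 356858 ± 16338 TPM in si-FGF9, 1.68-fold higher, and of the joint sum of genes and pseudogenes the latter made up 6.28% ± 0.36 for NG, 5.42% ± 0.57 for HG, 5.21% ± 0.50 for si-FGF9 and 5.19% ± 0.28 for HG + OE-FGF9.

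RPL36AP37 lies at chr11:16974693-16975013 on the minus strand of GRCh38, in an intron of PLEKHA7 and on the same strand. All its 321 bases match RPL36A, a large subunit gene on chromosome X, without a difference or gap. The NG libraries held 5036, 5274 and 4917 TPM, those of HG 6185, 4347 and 6597, those of si-FGF9 8318, 8500 and 5713, and those of HG + OE-FGF9 5752, 5720 and 5693. The si-FGF9 libraries lay above NG, with a log2 fold change of 0.54 ± 0.17 (SE) and an adjusted p of 0.0136 (limma, Benjamini-Hochberg), short of the fold criterion on TPM. The value was 1.58 with median-of-ratios scaling, which divides each library by its median ratio to the average library, and 0.09 with quantile normalization. RPL36A rose from 1600 to 4773 TPM on average, a log2 fold change of 1.56 with an adjusted p of 9.66e-06. The pseudogene was therefore listed at 284% to 357% of its parent in NG, at 151% to 166% in si-FGF9 and in between in the other groups, with no overlap between NG and si-FGF9. PLEKHA7 stayed between 0.09 and 1.04 TPM in the 12 libraries.

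RPS28P7, a copy of the small subunit gene RPS28, lies at chr11:82689559-82689768 on the plus strand, in an intron of the antisense gene MIR4300HG. Its 210 bases match the parent throughout. NG replicate 1 was far below its group, at 974 TPM against 2386 and 2219, while HG held 2469, 2510 and 2349, si-FGF9 3183, 3251 and 3146, and HG + OE-FGF9 2335, 2143 and 2458. The log2 fold change for si-FGF9 versus NG was 0.89 ± 0.26, with an adjusted p of 0.00817, and that of RPS28 was 2.14 with an adjusted p of 8.48e-06. With median-of-ratios scaling the pseudogene was at 1.92 and with quantile normalization at 0.54. RPS28P7 was listed above RPS28 in all NG, HG and HG + OE-FGF9 libraries and below it in the 3 si-FGF9 libraries, at 84.3% to 99.9% of the parent.

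RPL9P9, at chr15:82372196-82372912 on the minus strand, is a transcribed processed copy of RPL9, a large subunit gene. It differs from the parent at 1 base and has 81 gapped bases in the alignment, and 12.9% of its words are unique. Its TPM was 1347 to 1526 in NG, 1809 to 2297 in HG, 2766 to 2820 in si-FGF9 and 2462 to 2742 in HG + OE-FGF9, and NG overlapped with no other group. The log2 fold changes were 0.55 ± 0.11 for HG and 0.95 ± 0.11 for si-FGF9 against the shared NG libraries, with adjusted p of 0.00253 and 2.08e-05, both short of the fold criterion. RPL9 moved beside it by 0.58 and 1.15. With median-of-ratios scaling the pseudogene was at 1.07 and 1.99, and with quantile normalization at 0.51 and 0.75. The pseudogene was listed at 115% to 135% of the parent in all 12 libraries.

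In si-FGF9 versus NG the fold changes of RPL39P3 and RPL23AP42 were below 0 on the TPM scale and those of their parents above 0. RPL39P3, at chr6:73373108-73373263 within an intron of OOEP, matches RPL39 over all 156 bases. RPL39 encodes a small protein of the large subunit's exit tunnel. The NG libraries listed 3607, 3297 and 2215 TPM for the pseudogene, HG 3242, 2196 and 1832, si-FGF9 2144, 1838 and 908, and HG + OE-FGF9 1779, 1421 and 2133. The si-FGF9 libraries lay below those of NG, with a log2 fold change of -0.96 ± 0.32 and an adjusted p of 0.0169, and the direction turned to 0.07 with median-of-ratios scaling. RPL39 held 7899 to 8100 TPM in NG and 11929 to 14203 TPM in si-FGF9, so that the pseudogene was at 27.3% to 45.7% of the parent in NG and 7.61% to 15.1% in si-FGF9.

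RPL23AP42, at chr3:161429127-161429597, differs from RPL23A at 2 of 471 bases and overlaps exons of 2 antisense lincRNAs, AC112491.1 and LINC02067, which were listed at 0 to 5.09 TPM. It held 1938 to 2179 TPM in NG, 1269 to 2259 in HG, 1607 to 2078 in si-FGF9 and 1684 to 2057 in HG + OE-FGF9, and the 4 groups overlapped. The log2 fold change for si-FGF9 versus NG was -0.15 ± 0.18, and 0.88 with median-of-ratios scaling. RPL23A, which lies near the exit tunnel, rose in si-FGF9 from 1649 to 3694 TPM on average, by a log2 fold change of 1.17 with an adjusted p of 0.000143. The pseudogene stood at 105% to 145% of the parent in NG and at 48.0% to 53.8% in si-FGF9.

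RPL21P16, at chr10:120354701-120355183 and overlapping no other annotated gene, was the one of the 6 that met the fold criterion on TPM. It matches the large subunit gene RPL21 over all 483 bases. NG held 185, 172 and 180 TPM, HG 394, 389 and 326, si-FGF9 882, 826 and 696, and HG + OE-FGF9 565, 425 and 388. The groups NG, HG and si-FGF9 did not overlap with each other. Against NG the pseudogene rose by 1.04 ± 0.15 on the log2 scale under high glucose and by 2.15 ± 0.15 with si-FGF9, with adjusted p of 0.000779 and 3.14e-06. RPL21 changed by 0.03 and 0.65 on the same scale, so that the pseudogene was listed at 5.91% to 6.10% of the parent for NG, 10.9% to 12.9% for HG, 16.5% to 17.7% for si-FGF9 and 11.2% to 17.8% for HG + OE-FGF9, whose replicate 1 lay above every si-FGF9 library. Without HG replicate 1 or HG replicate 2 the rise in HG was 0.99 and 1.00, just short of the fold criterion.

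**Figure D2:**
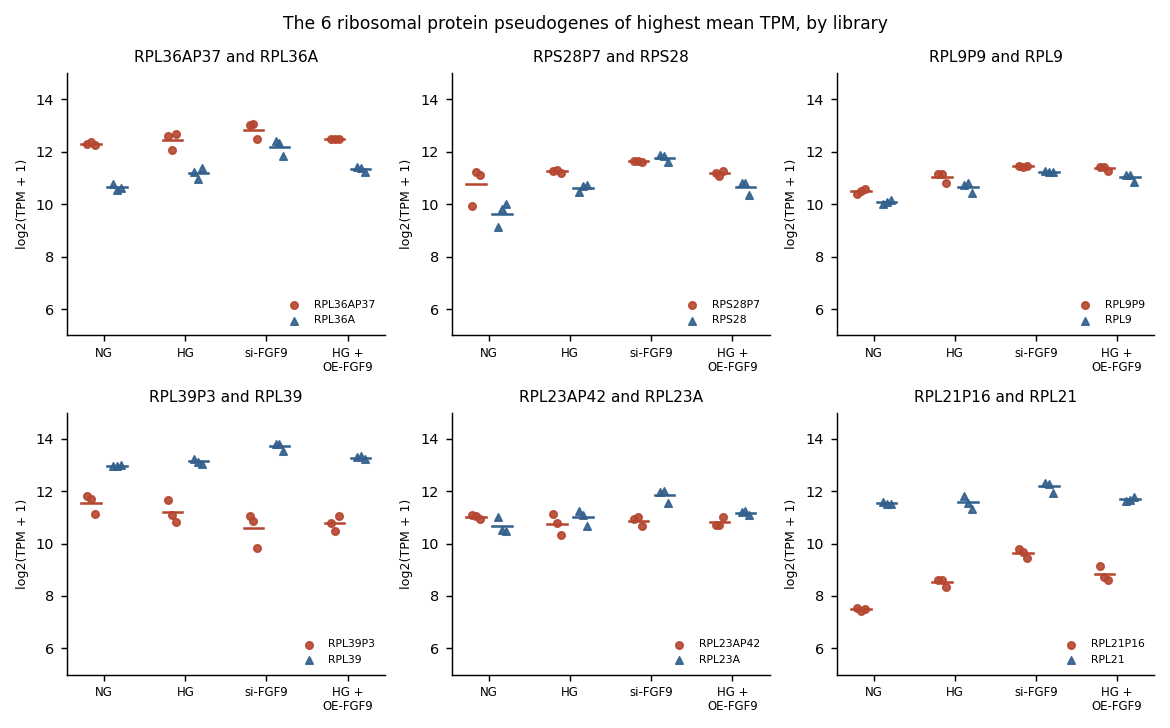
Level on the log2(TPM + 1) scale of the 6 highest pseudogenes (circles) and their parents (triangles) in the 12 libraries, with a bar at each group mean and a vertical axis that starts at 5. RPL36AP37 and RPL9P9 lie above the parent in every library, RPL39P3 and RPL21P16 below it, and the distance between member and parent differs by group.

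The share of a family's TPM listed under its pseudogenes is a ratio within a library, which a scaling factor per library leaves as it is. For RPL36A and its 52 listed pseudogenes NG had 76.1% ± 2.1, HG 70.6% ± 2.0, si-FGF9 61.1% ± 1.2 and HG + OE-FGF9 68.8% ± 1.4 (mean ± SD, n = 3). For RPS28 it was 68.3% ± 4.6 in NG and 47.6% ± 2.2 in si-FGF9, for RPL23A 56.5% ± 4.3 and 34.3% ± 1.3, and for RPL39 27.5% ± 5.1 and 10.6% ± 3.2. For RPL21 and its 133 listed pseudogenes the order was the opposite, from 6.46% ± 0.14 in NG to 15.4% ± 0.5 in si-FGF9. The share of RPL9 moved less, from 57.2% ± 0.4 in NG to 53.7% ± 0.2 in si-FGF9. In each of these families the si-FGF9 libraries lay apart from the NG libraries. A permutation test of 3 libraries against 3 cannot go below an exact two-sided p of 0.10.

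**Figure D3:**
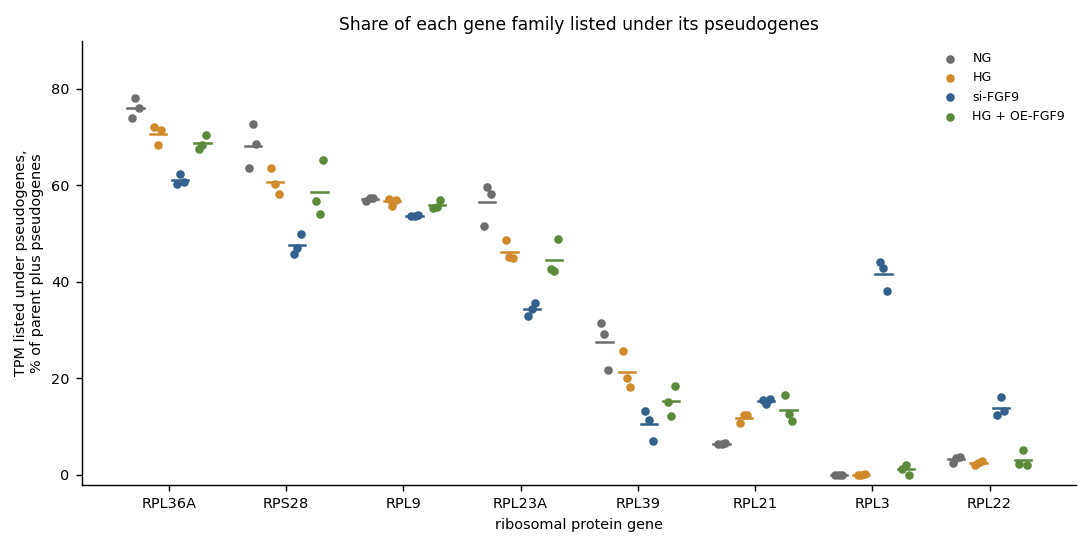
Percentage of the TPM of a ribosomal protein gene and all its listed pseudogenes that is listed under the pseudogenes, for 8 families, with a point per library and a bar at each group mean. The share of RPL36A averages 76.1% in NG and 61.1% in si-FGF9, and that of RPL3 is 0.019% in NG and 41.7% in si-FGF9.

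In the comparison of HG with NG, the question was what high glucose changed, though a control vector is described for NG only. Of the 116 pseudogenes, 4 were differentially expressed upward (by the study's criteria, 1 or more on the log2 scale with an unadjusted p under 0.01), against 1.65% of all genes tested, and 1 downward, against 22.7% of all genes tested. All 5 had adjusted p under 0.05. On log2(TPM + 1) a gene under 1 TPM in every NG library cannot fall by 1. A mean under 2 TPM over the 12 libraries was found in 58 of the 116 members. How many members, or how many of all genes, lay under 1 TPM in every NG library was not counted. The floor can thus limit the downward count to an unknown extent. The members had a median of 0.11, with 64 of 116 above 0, beside -0.39 for all genes. Besides RPL21P16, RPL32P15 rose from 0.68, 1.02 and 1.66 TPM in NG to 2.10, 3.92 and 4.22 in HG, by 1.05 ± 0.27 with an adjusted p of 0.00741, and all its words are unique. The value was 0.89 to 0.95, and not called, without NG replicate 2, HG replicate 1 or HG replicate 2. RPL13AP5, a copy of RPL13A with 3 differing bases, rose from 0.61, 0.36 and 0.00 TPM to 0.87, 3.77 and 1.15, by 1.04 ± 0.33 with an adjusted p of 0.0196, and by 0.63 and not called without HG replicate 2. The call was also lost without NG replicate 2 or 3. RPL13P5, which shares exons with LRRC23 at chromosome 12 and has no word in common with RPL13, fell from 9.32, 12.5 and 11.4 TPM to 6.49, 3.11 and 4.43, by 1.12 ± 0.25 on the log2 scale with an adjusted p of 0.00394. RPL13 itself was called in the other direction. RPL13P5 was at -0.66 and not called with median-of-ratios scaling. Of the genes at the same place, LRRC23 stayed at 7.96 to 8.97 TPM in these 6 libraries and DSTNP2, a pseudogene of the same strand, averaged 15.1 TPM for NG, 11.2 for HG and 6.47 for si-FGF9, where it was called lower. SPSB2, on the other strand, held 10.8 to 14.6 TPM in NG and 13.01 to 25.1 in HG.

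This count rested on single libraries. Without HG replicate 2 none of the 116 met both criteria in limma, with 13 at an unadjusted p under 0.05, and without HG replicate 3 there were 10. The calls over all 14639 genes tested moved as well, from 3570 to 2238 without HG replicate 2 and to 4746 without HG replicate 3. The split also depended on the scaling. With median-of-ratios scaling 9 members were called up and 0 down, beside 7.26% and 8.47% of all genes, so that the upward count lay near the share of all genes. With a correction for GC content 20 were called up and 1 down, beside 3.78% and 3.06%.

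In the comparison of si-FGF9 with the same NG libraries, 16 members were differentially expressed upward, against 5.36% of all genes tested, and 5 downward, against 42.2%. The floor given for HG versus NG can limit the downward count here as well. The 16 include RPL4P2, which reached the level only in si-FGF9 and so had to differ, and 15 are left without it. RPL13AP5 is among the 15 and also entered the set only through si-FGF9, with too few other libraries at the level. How many others needed the si-FGF9 libraries to reach 3 was not counted. The members' median log2 fold change was 0.29, with 77 of 116 above 0, beside -0.79 for all genes. Of the 16 that rose, 6 had a parent that also rose by the same criteria and 10 a parent that was not called, and 12 had a mean under 10 TPM. Of the 5 that fell, 3 had a parent that rose. With median-of-ratios scaling 46 members were called up and 1 down, beside 18.9% and 17.8% of all genes. Quantile normalization gave 47 and 3, beside 16.2% and 17.1%, and the GC correction 56 and 2, beside 12.3% and 12%. The upward share thus rose with each scaling among all genes as well. The 307 tested pseudogenes of other families had 27 calls up and 91 down and a median of -0.51 on TPM, beside 51 up and 54 down with median-of-ratios scaling.

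RPL3P4 went from the bottom of the list to a level close to that of its parent. It was listed at 0, 0.68 and 0 TPM in NG, at 0, 0 and 1.61 in HG, at 1217, 1137 and 852 in si-FGF9, and at 15.1, 23.3 and 0.83 in HG + OE-FGF9. The si-FGF9 libraries stood apart from the other 9, with a log2 fold change against NG of 9.80 ± 0.75 and an adjusted p of 4.63e-06. The gene lies at chr14:98972879-98973301 on the minus strand and overlaps no other annotated gene. It matches part of RPL3, a large subunit protein that reaches toward the peptidyl transferase centre, and differs from it at 2 of 423 bases. Both differences lie in the window printed above, and the longest run without a difference is 327 bases. Of its 374 words, 29 are unique and 77.8% are in RPL3. RPL3 held 1506, 1523 and 1511 TPM in NG and 1537, 1517 and 1386 in si-FGF9, a log2 fold change of -0.03 with an adjusted p of 0.791. The TPM of the RPL3 family thus went from 1513 ± 9 in NG to 2549 ± 274 in si-FGF9, and the part listed under pseudogenes from 0.019% to 41.7% ± 3.2.

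RPL22P1, in an intron of MECOM at chr3:169483671-169484080, had a like distribution over the groups. NG listed 1.83, 0 and 0 TPM, HG 0, 7.76 and 1.01, si-FGF9 218, 314 and 197, and HG + OE-FGF9 0, 46.8 and 0. The si-FGF9 libraries lay above all others, and the log2 fold change against NG was 7.40 ± 1.25, with an adjusted p of 0.000219. The aligned stretch shows 0 differing bases and 7 gapped bases against RPL22, a large subunit gene that binds RNA, and 29.4% of its words are unique. RPL22 changed by 0.43 with an adjusted p of 0.00636, from 1217 to 1273 TPM in NG to 1461 to 1783 in si-FGF9. MECOM was listed at 0 in the 3 si-FGF9 libraries.

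RPL13AP5 rose further than in HG, to 10.6, 14.1 and 10.6 TPM, with a log2 fold change of 3.29 ± 0.33. Fewer than 3 libraries outside si-FGF9 reached 1 TPM, so this copy entered the set only through si-FGF9. No p is given, since its level there made it a member. RPL13A rose too, by 1.17 with an adjusted p of 1.66e-05. RPL24P2, at chr20:21114723-21115197, had the highest level among members with mostly unique words, 87.8% of them. It went from 28.6, 14.5 and 18.01 TPM in NG to 50.5, 50.3 and 52.5 in si-FGF9, a log2 fold change of 1.34 ± 0.21 with an adjusted p of 0.000149. RPL24 changed by 0.72, with an adjusted p of 5.22e-05.

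RPS2P5 had the highest level among the 5 members called downward. Its parent RPS2 is a small subunit gene, and the copy at chr12:118246084-118246962 differs from it at 11 of 879 bases. It went from 95.7, 133 and 136 TPM in NG to 34.1, 45.1 and 47.7 in si-FGF9, by -1.50 ± 0.23 with an adjusted p of 9.94e-05, and it was at -0.48 and no longer called with median-of-ratios scaling. RPS2 changed by -0.11, with an adjusted p of 0.355. TAOK3, in whose intron the copy lies on the other strand, held 11.3 to 12.2 TPM in NG and 1.91 to 5.11 in si-FGF9. RPL17P47, which shares exons with the zinc finger gene ZNF625 and the readthrough gene ZNF625-ZNF20, fell from 7.27, 4.98 and 4.95 TPM to 0.29, 0.94 and 0.29, by 2.17 ± 0.41 on the log2 scale with an adjusted p of 0.000462. It was at -0.54 and not called with the GC correction. ZNF625 held 0.68 to 0.92 TPM in NG and 0.56 to 1.68 in si-FGF9, and ZNF625-ZNF20 went from 4.45, 2.27 and 1.67 TPM to 0.65, 0.58 and 0. RPL13P5 fell by 1.19 ± 0.25, with an adjusted p of 0.00108, and by 0.29 with median-of-ratios scaling, where it was not called.

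**Figure D4:**
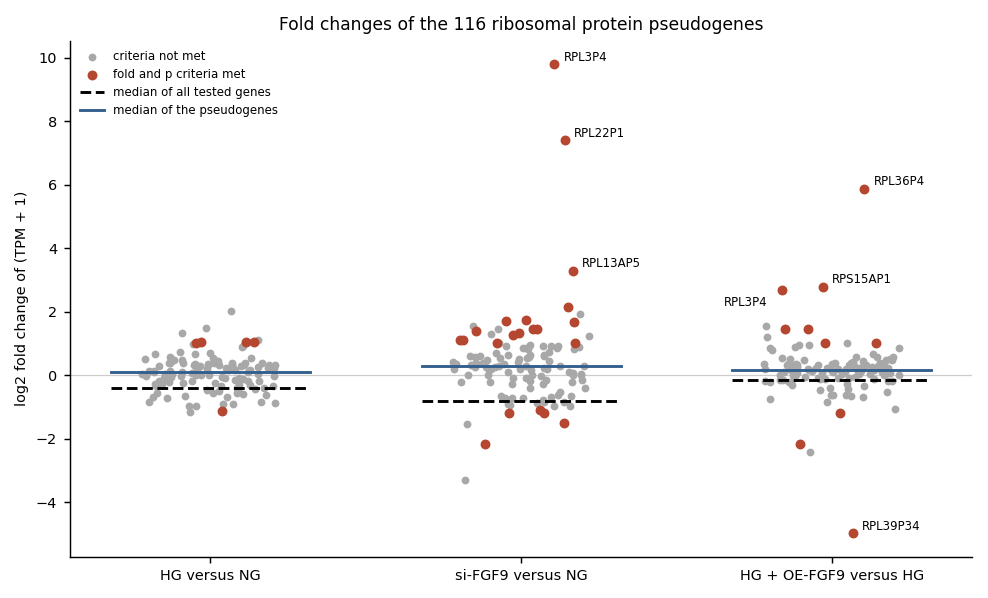
Log2 fold change of (TPM + 1) of each of the 116 pseudogenes in the 3 comparisons, with members that met the fold and p criteria in red, the members' median as a solid line and the median of all genes tested as a dashed line. RPL3P4 at 9.80 and RPL22P1 at 7.40 stand above the rest in si-FGF9 versus NG, and RPL36P4 and RPL39P34 lie at the ends in HG + OE-FGF9 versus HG.

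In the comparison of HG + OE-FGF9 with HG, 7 members were differentially expressed upward, against 2.94% of all genes tested, and 3 downward, against 2.67%. The 7 include RPL36P4, which reached the level only in HG + OE-FGF9 and so had to differ, and 6 are left without it. Whether any of the 6 needed the HG + OE-FGF9 libraries to reach the level in 3 libraries was not counted. Adjusted p was under 0.05 for 6 of the 10. The members' median log2 fold change was 0.16, with 78 of 116 above 0, beside -0.13 for all genes. No parent of the 10 was called, and none of the 85 ribosomal protein genes was in limma, with 12 at an unadjusted p under 0.05. The count was 4 without replicate 1 of HG + OE-FGF9, 5 without its replicate 2, and 6 without HG replicate 1 or HG replicate 2. Over all genes these fits gave 565, 549, 661 and 1360 calls, beside 821 with all libraries.

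RPL36P4 was listed at 0 in the 9 libraries of NG, HG and si-FGF9 and at 117, 104 and 15.5 TPM in HG + OE-FGF9. No fold is given against a group at 0, and no p, since this difference alone made it a member. It is annotated on the minus strand at chr20:35544430-35544747, antisense to an exon of ERGIC3, a gene of the transport between endoplasmic reticulum and Golgi. All of its 269 words occur in ERGIC3 transcripts when both strands are searched, and none is in RPL36. ERGIC3 held 317 to 442 TPM in HG and 380 to 449 in HG + OE-FGF9, and the strand setting of the authors' counting is not given in the sources used here. With strand unknown, reads of the pseudogene and of ERGIC3 cannot be told apart.

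RPS15AP1, at chr20:21166206-21166596, rose from 2.68, 0.71 and 2.02 TPM in HG to 30.5, 21.2 and 8.12 in HG + OE-FGF9, by 2.80 ± 0.45 with an adjusted p of 0.00366. It lies antisense to an intron of KIZ, a centrosomal gene, and within an intron of KIZ-AS1 on its own strand, and 78.7% of its words are unique. KIZ held 8.93 to 13.4 TPM in HG and 3.87 to 13.7 in HG + OE-FGF9, and KIZ-AS1 at most 0.01 TPM in HG and 0.09 to 0.23 in HG + OE-FGF9. For RPL3P4 the log2 fold change was 2.70 ± 0.75, with an adjusted p of 0.0437, although HG replicate 3, at 1.61 TPM, lay above HG + OE-FGF9 replicate 3, at 0.83. This call was lost with only the 6 libraries fitted and without HG replicate 1, HG replicate 2, HG + OE-FGF9 replicate 1 or HG + OE-FGF9 replicate 2, and the value ran from 1.98 to 3.84 with a library left out. In all 3 of these pseudogenes HG + OE-FGF9 replicate 3 was the lowest of its group, as it was for small nuclear and nucleolar RNAs, and the part of this in the results was not tested.

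RPL39P34, a transcribed unprocessed copy within an exon of the zinc finger gene ZNF808 at chr19:52564076-52564231, was listed at 19.2, 30.6 and 47.5 TPM in HG and at 0 in the 3 HG + OE-FGF9 libraries, with an adjusted p of 0.0255. It was also at 0 in NG replicate 3 and in si-FGF9 replicates 2 and 3, beside 18.4 TPM in si-FGF9 replicate 1. All its 107 words are in ZNF808 and none is in RPL39. ZNF808 held 1.23 to 1.50 TPM in HG and 2.27 to 2.63 TPM in HG + OE-FGF9, and ZNF701, in whose intron the copy also lies, 0.58 to 1.39 and 0.92 to 2.45. RPL13AP5 fell to 0, 0.46 and 0.12 TPM, by 1.18 ± 0.33 on the log2 scale with an adjusted p of 0.0416, and by 0.77 and not called without HG replicate 2. The call was also lost without HG + OE-FGF9 replicate 1 or 3. RPS27P8, a copy of the small subunit gene RPS27, went from 4.08, 6.83 and 5.05 TPM to 0, 1.75 and 0, by -2.15 ± 0.69, its adjusted p was 0.0723, and the call was lost without any 1 of the 3 HG libraries and without HG + OE-FGF9 replicate 1 or 3.

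**Figure D5:**
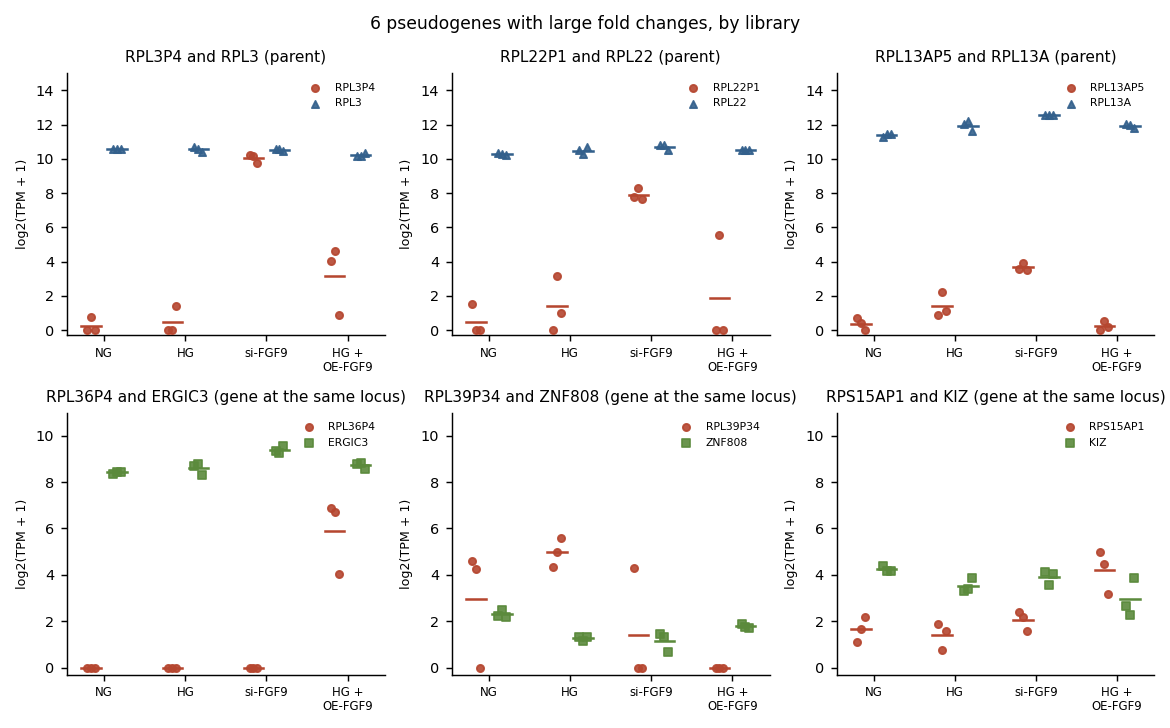
Level on the log2(TPM + 1) scale by library of 6 pseudogenes (circles), beside the parent (triangles) for RPL3P4, RPL22P1 and RPL13AP5 and beside the gene at the same place (squares) for RPL36P4, RPL39P34 and RPS15AP1, with a bar at each group mean. RPL3P4 and RPL22P1 are high in the 3 si-FGF9 libraries, while RPL3 lies between 1142 and 1658 TPM and RPL36P4 is above 0 only in HG + OE-FGF9.

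The remaining members were named by their level or their unique words and met the criteria in no comparison. RPL32P29, at 17.1 to 61.3 TPM over the libraries, lies in an exon of RPS29, and all its words belong to that small subunit gene and none to RPL32. RPL22P19 and RPL29P19, with 100% and 95.9% unique words, held 7.11 to 22.5 and 10.48 to 16.3 TPM over the 12 libraries. RPL22P2, with 77.5% unique words, held 4.13 to 12.9 TPM. RPL39P5, which overlaps an exon of AMOTL2, was listed at 0, 22.1 and 40.3 TPM in NG, at 0, 9.01 and 14.6 in HG and at 0 in the other 6 libraries. AMOTL2 averaged 40.6 TPM for NG, 18.8 for HG, 4.05 for si-FGF9 and 11.6 for HG + OE-FGF9.

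Some members reached the level in a single group and had to differ by the rule that chose them. These were RPL21P14 and RPL4P2, at 1 TPM or more only in si-FGF9, and RPL36P4, only in HG + OE-FGF9. At the other end, 35 members held at least 1 TPM in all 12 libraries. Per library, 71 to 83 members were at 1 TPM or more in NG, 73 to 81 in HG, 82 to 87 in si-FGF9 and 80 to 89 in HG + OE-FGF9.

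The parents with most members were RPL23A, with 11 of 91 listed pseudogenes, RPL21, with 9 of 133, and RPS27, with 8 of 30. None of the 8 RPS27 copies reached a mean of 10 TPM, and all 30 listed copies together made up 0.309% ± 0.059 of the family's TPM in NG and 0.386% ± 0.124 in si-FGF9. Of the 11 RPL23A copies, 2 reached that mean. In HG + OE-FGF9 versus HG, 3 of these 11 were called, beside 5.61% of all genes. The RPL21 copies had 0 calls there and the RPS27 copies 1. In si-FGF9 versus NG the calls were 1 for RPL23A, 2 for RPL21 and 0 for RPS27, beside 47.6% of all genes. For HG versus NG they were 0, 1 and 0, beside 24.4%.

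The ribosomal protein genes give the frame for the copies. Of 85 tested, 2 were called up and 1 down in HG versus NG, and 29 up and 2 down in si-FGF9 versus NG, with medians of 0.31 and 0.72. Of all genes tested, 1.65% and 5.36% were called up. The number called up in si-FGF9 was 75 with median-of-ratios scaling, beside 18.9% of all genes, and 15 with quantile normalization, beside 16.2%. The count with quantile normalization thus lay near the share of all genes. For HG versus NG these scalings gave 29 and 0 called up. The median was above 0 with both scalings in both comparisons.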

How the data were processed

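RNA of 12 HK2 libraries, 3 per group by the sample labels, was deposited by the authors as TPM to 2 decimals. The submitters' processing notes name Bowtie 0.12.2 and mm8, a mouse build, although the identifiers are human; the quantification tool and annotation are not given in the sources used here. Depth is unknown, so precision rests on the 3 libraries alone. The per-library files held the same values as the combined table. Values were taken as log2(TPM + 1) and all 12 libraries entered 1 limma fit (3.58.1, R 4.3.3) with the group as its term and moderated variances that follow the mean, for the 14639 genes with at least 1 TPM in 3 or more libraries. Calls required an unadjusted p under 0.01 together with a change, up or down, of 1 or more on the log2 scale. Benjamini-Hochberg adjusted p cover all genes tested. Biotype, position and sequence came from GENCODE release 29 (GRCh38), which matched 58279 of 62703 identifiers and gave GC content for 96.9% of the genes tested; the authors' build may differ. Alignments used Biopython 1.88. Named were RPL3P4, RPL22P1 and RPL39P34, the 10 members with the highest mean TPM, the 3 called members with the largest fold change per direction and comparison, the 5 highest by ratio to the parent, the 5 highest with at least 50% unique words, their parents and overlapping genes. The members, lists and tests were chosen with earlier results of these data known. Alternatives were other filters, a pseudocount of 0.1, other scalings, a GC correction, a replicate block, and each library left out.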

Additional observations from a re-analysis of the deposited data

How the results depend on the processing

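Members called numbered 5 in HG and 21 in si-FGF9, each versus NG, and 10 in HG + OE-FGF9 versus HG, beside 24.4%, 47.6% and 5.61% of all genes. Median-of-ratios scaling gave 9 and 47 for HG and si-FGF9 versus NG, beside 15.7% and 36.8% of all genes, quantile normalization 50 for si-FGF9 versus NG, beside 33.3%, and the GC correction 21 and 58, beside 6.84% and 24.3%. For HG + OE-FGF9 versus HG these settings gave 9, 11 and 8, beside 5.37%, 5.5% and 5.21%. With at least 1 TPM required in all 12 libraries, 35 members remained and 2, 7 and 2 were called, beside 23.9%, 47.6% and 4.32% of all genes. Without a filter on low values 6 were called for HG + OE-FGF9 versus HG, beside 2.93% of all genes. With an adjusted p under 0.05 in place of the unadjusted p it was also 6, beside 4.99%. Leaving out one library at a time gave 0 to 10, 18 to 25 and 4 to 13 calls. Over all 14639 genes the same fits gave 2238 to 4746, 6690 to 6961 and 549 to 1617 calls. The summed TPM of all listed pseudogenes, on the log2 scale, went from 0.12 to 0.63, from 0.47 to 1.50 and from 0.0026 to 0.15 under median-of-ratios scaling. Leaving out one library at a time gave 0.02 to 0.18, 0.41 to 0.58 and -0.06 to 0.10. The cause of these changes was not tested.

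Of 19 pairs of a named member and a comparison in which it was called, 9 stayed called under all alternatives run, and none of the 310 refits turned the direction, while 36 lost the call. The share of unique words depended on word length, with a median over the members of 69.6% at 50 bases, 50.5% at 31 and 93.5% at 100. With the replicate number as a block, 6, 23 and 8 members were called, beside 24%, 47.3% and 5.42% of all genes. Libraries with the same number correlated at -0.439 to 0.248 in their deviations from the group means, with 3 of 18 pairs over 0.1, so that the numbers were not taken to pair the samples. Without depth, the counting error of members near 1 TPM cannot be given.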

Other observations

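A few copies of ribosomal protein genes lay outside the naming rule. Among pseudogenes of RPLP0 and RPLP1, which encode acidic proteins of the ribosomal stalk, RPLP0P9 held 0, 0.98 and 1.00 TPM in the NG libraries, with 2.08, 5.52 and 2.25 for HG, 7.0, 6.35 and 4.72 for si-FGF9, and 6.48, 2.99 and 2.15 for HG + OE-FGF9. Its log2 fold change against NG was 1.35 in HG and 2.14 in si-FGF9, with adjusted p of 0.0136 and 0.000378 in limma. RPLP1P6 held 3.63 to 7.53 TPM in NG and 10.8 to 15.02 in si-FGF9, a log2 fold change of 1.28 with an adjusted p of 0.00404. RPSAP52, a copy of the small subunit gene RPSA, held 3.06 to 3.70 TPM in NG and 0.36 to 2.05 in si-FGF9, with a log2 fold change of -0.91 and an unadjusted p of 0.0116 in limma, short of both criteria. RPL23AP7 is listed under 2 identifiers, and the 1 without an annotated biotype in GENCODE release 29 held 11.7 to 16.5 TPM in NG, HG and si-FGF9 and 20.9 to 29.4 TPM in HG + OE-FGF9.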
